A study of Mus musculus with 12 samples.

Results

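Described here are 39 genes of glucose uptake, glycolysis, lactate and glycerol 3-phosphate handling and glycogen metabolism in mouse subcutaneous white adipose tissue (scWAT). They were chosen by name, with earlier results of these data known. Shares over all genes are therefore given beside the members as a description, not as a test of the set. The members were found by matching their symbols to the gene identifiers of the count tables. All 39 were matched among the 55401 genes listed, and all 39 passed the filter on low counts that left 16540 genes for testing. RNA-seq had been run on 12 libraries of female mice, 3 in each of 4 groups: wild-type mice (*Jmjd1a* +/+) and mice homozygous for the HY allele of *Jmjd1a* (HY/HY), kept either at 30°C, which is thermoneutral for a mouse, or at 8°C. The mice, whose age is given as 16 weeks, spent 1 week alone in their cages at 30°C and then 1 week at the test temperature. The HY allele was made by CRISPR in C57BL/6J eggs and replaces a histidine of the catalytic centre of JMJD1A, a histone H3K9 demethylase encoded by *Kdm3a*, with tyrosine. The allele is carried by every cell of the body. Of the 2 lines made, females were taken from 1, and the sequenced libraries are not tied to a line in their labels. An allele that replaces 1 residue of the protein need not change the amount of its RNA, so the RNA level of *Kdm3a* was not used to check the genotype labels. The replicates are numbered in the labels without a statement of which mouse gave which library, so the p-values measure the spread between these libraries.

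Fat cells take up glucose through the transporters GLUT1 and GLUT4, trap it as glucose 6-phosphate with a hexokinase, and pass it through glycolysis to pyruvate and lactate. A branch from the middle of glycolysis gives glycerol 3-phosphate, the backbone of stored triglyceride, and glycerol kinase makes the same compound from the glycerol set free by lipolysis. A second branch stores glucose as glycogen, which glycogen synthase and branching enzyme build and glycogen phosphorylase takes apart. White fat is known for little glycerol kinase and little glycogen, whereas thermogenic fat burns glucose as well as fat.

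The libraries held between 13592629 and 26352081 read pairs on genes. Levels are given as counts scaled to a common library size (CPM, the usual unit of RNA-seq) with library sizes adjusted by the trimmed mean of M values (TMM). The 3 values of a group stand in the order of replicates 1, 2 and 3, and values of several groups stand in the order wild type at 30°C, wild type at 8°C, HY/HY at 30°C and HY/HY at 8°C. A gene was called changed at an adjusted p under 0.05, by the quasi-likelihood test of edgeR and adjusted over all genes tested after Benjamini and Hochberg, together with a fold change above 1.5 or below 0.67. Differences are log2 fold changes with their standard error (SE).

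One library stood apart. Replicate 2 of the wild-type mice at 30°C held skeletal muscle transcripts: its 16 muscle markers summed to 1968 CPM, against 44.2 to 95.6 CPM in the other 11 libraries, and 15 of the 16 were highest there. This bears on the members with a muscle isoform, so counts are given with and without that library. The 8 white adipocyte markers, among them *Adipoq* and *Plin1*, were abundant in all 12 libraries, at a sum of 21982 to 48295 CPM. The 7 markers of thermogenic adipocytes, among them *Ucp1*, summed to 76.4 to 201 CPM, 8338 to 9255 CPM, 65.4 to 241 CPM and 533 to 1678 CPM. They were thus highest in the wild type at 8°C, as were many of the members below. Their part in the members' differences was not tested, and in bulk tissue fewer cells of a type and less RNA per cell cannot be told apart.

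The first question was how the genes of glucose use answered to cold in wild-type mice. Of the 39 members, 24 rose and 4 fell at 8°C, and 11 were not called. Among all genes tested, 10.3% were called higher and 6.93% lower. The median difference of the members was 0.95 on the log2 scale, against -0.069 over all genes. In 26 members all 3 libraries at 8°C lay above those at 30°C and in 4 below, while 20.7% and 22.7% of all genes showed such a separation. The summed level of the 39 members was 8741, 8497 and 11108 CPM at 30°C and 29217, 30097 and 28027 CPM at 8°C. Without the library with muscle transcripts 19 members were called higher and 1 lower, against 8.13% and 3.31% of all genes. Of 5 endothelial markers 4 were called higher in the same comparison, and the 5 summed to 411 to 635 CPM at 30°C and 771 to 1062 CPM at 8°C. Their part in the members' response was not tested.

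The same step from 30°C to 8°C changed 1 member in HY/HY mice, *Gk*, which rose. Of all genes, 0.181% were called higher and 0.0665% lower in this comparison. The median of the members was 0.11 on the log2 scale, against -0.015 over all genes. The summed level was 10641, 19152 and 15394 CPM at 30°C and 15017, 16022 and 17248 CPM at 8°C, so that the libraries at 8°C fell inside the range at 30°C. The libraries did not overlap, with those at 8°C higher, in 5 members and lower in 2, against 9.33% and 8.99% of all genes. Replicate 2 at 30°C was the highest of these 6 libraries, and replicate 1 at 30°C the lowest. Replicate 1 was the lowest of the 3 libraries at 30°C for 26 of the 39 members.

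**Figure D1:**
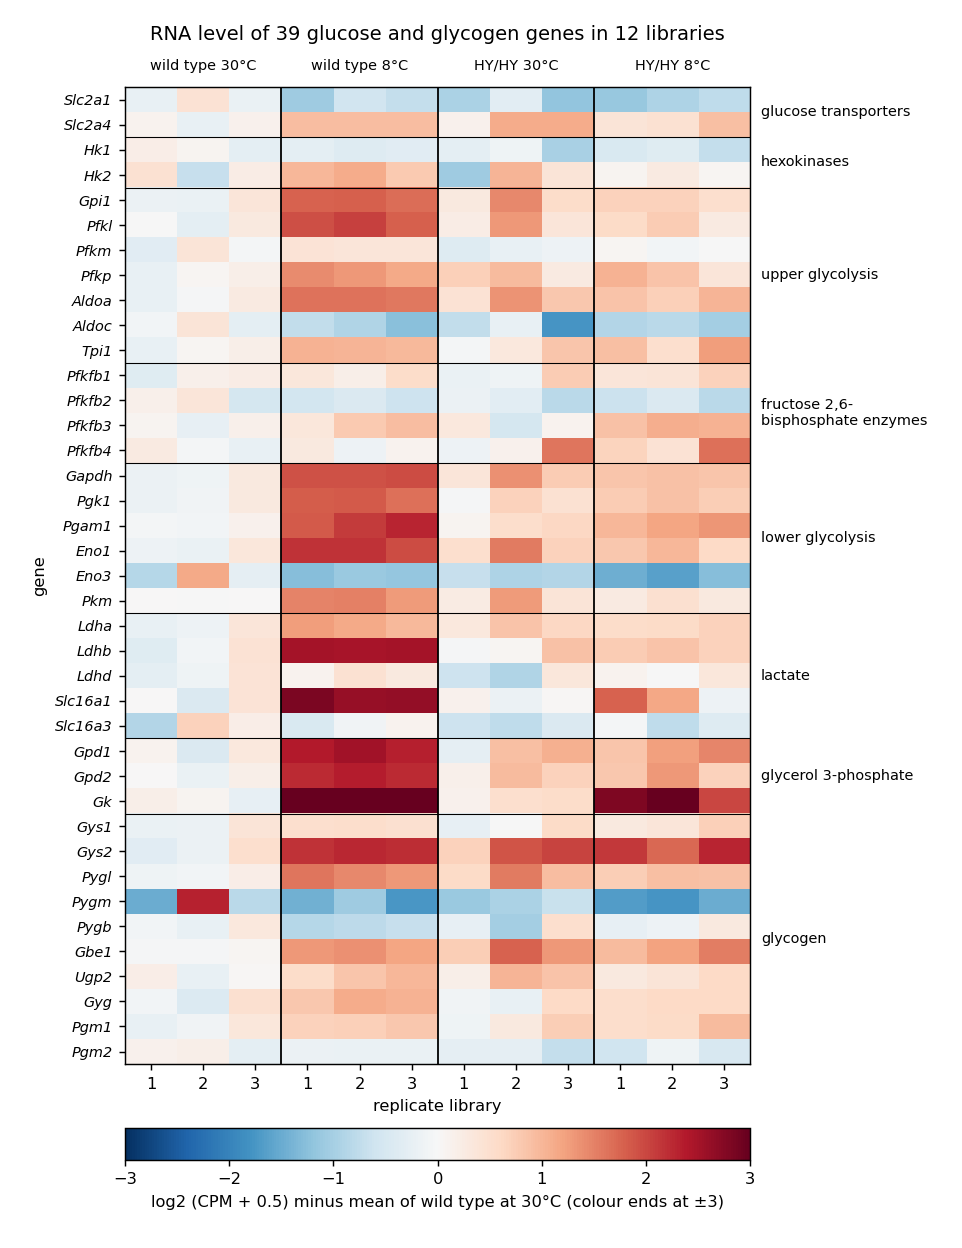
Level of each of the 39 members in each of the 12 libraries. Colour gives log2 (CPM + 0.5) minus the mean of the 3 wild-type libraries at 30°C, with columns grouped by genotype and temperature and rows by role. The 3 wild-type columns at 8°C are red for most rows, most rows are paler in the HY/HY columns, *Gk*, *Gys2* and *Gbe1* apart, and *Pygm* and *Eno3* are red in replicate 2 of the wild-type mice at 30°C.

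The difference between the genotypes was taken at each temperature. At 8°C 12 members were lower in HY/HY than in wild-type mice and 0 were higher by edgeR's test, against 4.42% lower, 1.51% higher and 5.93% in either direction among all genes. At an unadjusted p under 0.05 1 member, *Pygb*, was higher. DESeq2 called 14 lower and 0 higher, against 5.82% and 2.45% of all genes. The median of the members was -0.39 on the log2 scale, against 0.012 over all genes. In 20 of the 39 members the 3 HY/HY libraries all lay below the wild-type libraries, and in 2 above. Among all genes 19% lay below and 16.4% above. In the same comparison 3 of 7 macrophage markers were called higher in HY/HY mice, with sums of 199 to 302 CPM against 136 to 146 CPM in the wild type, and 2 of 8 white adipocyte markers, with sums of 35204 to 46089 CPM against 28863 to 35495 CPM. Their part in the members' differences was not tested. At 30°C 3 members, *Gys2*, *Pygl* and *Gbe1*, were higher in HY/HY mice and 0 were lower, against 0.562% higher and 0.441% lower among all genes. In 8 members the 3 HY/HY libraries all lay above the wild-type libraries, as in 7.67% of all genes, and in 1 below, as in 10.6%. The median was 0.39, against -0.0081 over all genes, and at an unadjusted p under 0.05 15 members were higher and 7 lower. DESeq2 called 12 higher and 1 lower, against 2.16% and 1.89% of all genes. Without replicate 2 of the wild-type mice at 30°C the 3 differences were 1.52 ± 0.37, 1.03 ± 0.26 and 1.32 ± 0.27 (SE), close to those with it, but were no longer called (edgeR adjusted p = 0.119, 0.127 and 0.0826).

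The test of whether the response to cold itself differed between the genotypes, the interaction, called 13 members, all with a lower response in HY/HY mice. Of all genes, 2.07% were called in this direction and 0.169% in the other. The median of the members was -1.10 on the log2 scale, against 0.043 over all genes. Leaving out the library with muscle transcripts left 6 of these calls, and leaving out replicate 2 of the HY/HY mice at 30°C left 12. In those refits 0.707% and 1.08% of all genes were called in this direction.

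**Figure D2:**
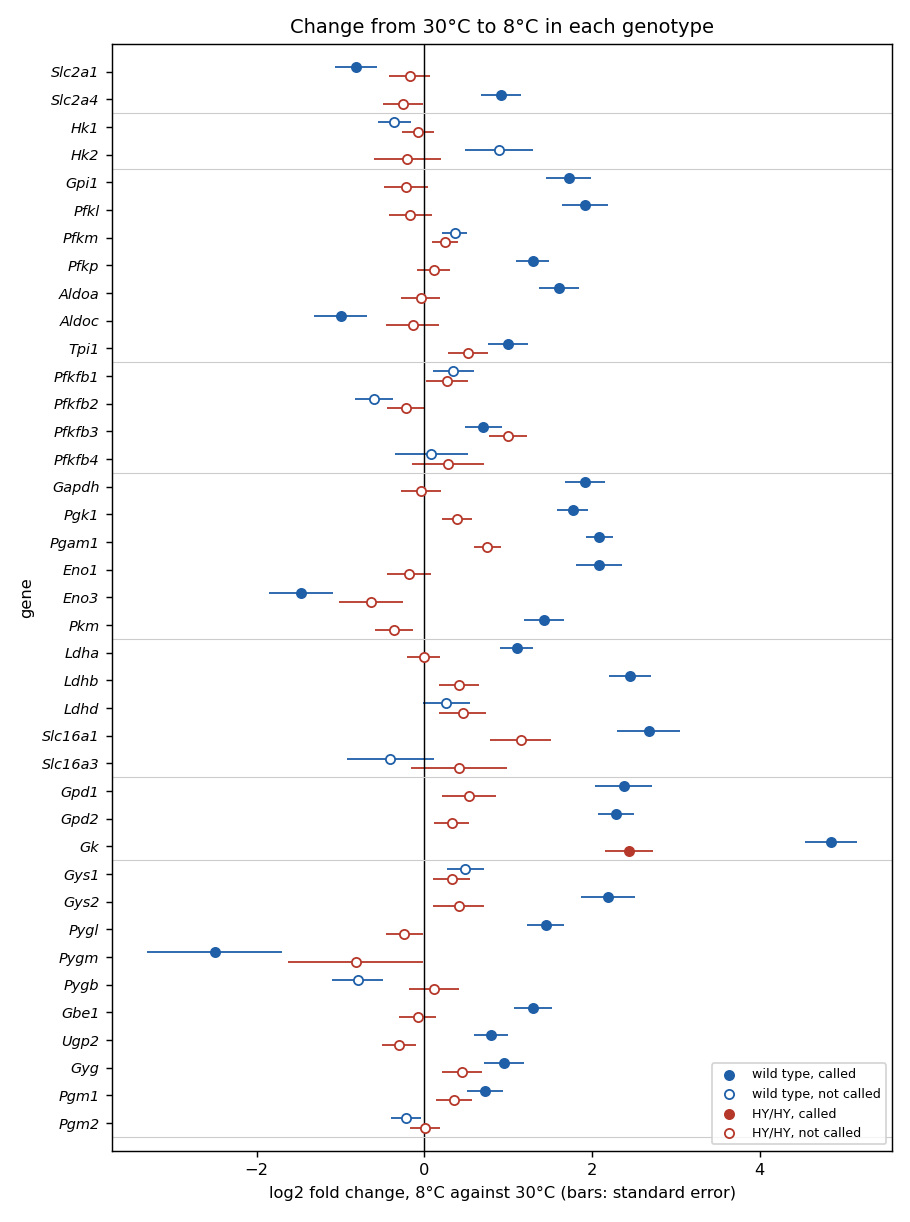
Log2 fold change from 30°C to 8°C of each member in wild-type (blue) and in HY/HY (red) mice. Points are estimates from 3 libraries against 3, bars are standard errors, and filled points were called. Filled blue points stand to the right of 0 for 24 members and to the left for 4, and *Gk* is the 1 filled red point.

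Among the glucose transporters, *Slc2a4*, which encodes the insulin-responsive GLUT4, rose with cold in wild-type mice. Its level there was 266, 209 and 267 CPM at 30°C and 465, 468 and 466 CPM at 8°C, a difference of 0.91 ± 0.24 (SE, edgeR adjusted p = 0.0185). In HY/HY mice it was 267, 531 and 532 CPM at 30°C and 319.8, 335 and 459 CPM at 8°C. The libraries of these mice overlapped between the temperatures, and 2 of the 3 at 30°C lay above all wild-type libraries. The difference between the genotypes at 30°C was 0.84 ± 0.24 and was not called (edgeR adjusted p = 0.101). *Slc2a1*, which encodes the basal transporter GLUT1, fell with cold in wild-type mice, from 38.4, 61.5 and 39.2 CPM to 21.4, 30.2 and 27.6 CPM (-0.82 ± 0.25, SE, edgeR adjusted p = 0.032). It lay at 23.3, 36.4 and 19.6 CPM and 20.2, 23.5 and 26.7 CPM in HY/HY mice, where it was not called in any comparison. Without the library with muscle transcripts, where *Slc2a1* was highest, neither was called: *Slc2a4* differed by 0.81 ± 0.27 and *Slc2a1* by -0.56 ± 0.24 (SE, edgeR adjusted p = 0.0728 and 0.136). Markers of mammary epithelium, 8 genes such as *Krt14* and *Epcam*, moved with *Slc2a1*: they summed to 2165 to 3965 CPM, 1439 to 1581 CPM, 589 to 1606 CPM and 829 to 1359 CPM. Their part in the fall of *Slc2a1* was not tested.

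The hexokinases, which phosphorylate glucose on entry, were not called in any comparison. *Hk2*, the insulin-regulated isoform of fat and muscle, was at 214, 96.9 and 181 CPM and 312, 337 and 266 CPM in wild-type mice, with no overlap but a wide spread at 30°C (0.89 ± 0.41, SE, edgeR adjusted p = 0.127). In HY/HY mice it ran from 74.5 to 314 CPM at 30°C and from 163 to 187 CPM at 8°C. *Hk1*, the isoform of most tissues, lay between 41.5 and 94.8 CPM in all 12 libraries. Of 7 further genes of glucose uptake tested, 1 was called higher and 1 lower by cold in wild-type mice. Each is 14.3% of them, against 10.3% higher and 6.93% lower among all genes. *Slc2a3*, which encodes GLUT3, fell with cold in wild-type mice by 1.06 and was lower in HY/HY mice at 30°C, with a difference of -1.49 ± 0.29 (SE, edgeR adjusted p = 0.0207 and 0.0375).

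Of the 7 genes of upper glycolysis, which turn glucose 6-phosphate into triose phosphates, 5 rose with cold in wild-type mice and 1 fell. *Gpi1*, glucose 6-phosphate isomerase, was at 289, 284 and 419.8 CPM in wild-type mice at 30°C and 1118, 1122 and 1041 CPM at 8°C, and 402, 886 and 476 CPM and 524, 527 and 463 CPM in HY/HY mice. The wild-type libraries at 8°C lay above all others, and the difference was 1.72 ± 0.27 by cold in wild-type mice and -1.12 ± 0.26 between the genotypes at 8°C (SE, edgeR adjusted p = 0.000958 and 0.0259). *Pfkl*, the liver-type subunit of phosphofructokinase at the committed step of glycolysis, was at 144, 119 and 179 CPM in wild-type mice at 30°C and 560.3, 601 and 504 CPM at 8°C, and 171, 359 and 187 CPM and 217, 248 and 174 CPM in HY/HY mice. It changed by 1.92 ± 0.27 with cold in wild-type mice and differed by -1.38 ± 0.27 between the genotypes at 8°C (SE, edgeR adjusted p = 0.00053 and 0.0111). Replicate 2 of the HY/HY mice at 30°C was the highest of its group for both genes.

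Of the other phosphofructokinase subunits, *Pfkp*, the platelet type, was at 48.2, 57.9 and 62.8 CPM in wild-type mice at 30°C and 152, 138 and 124 CPM at 8°C, and 92.9, 108 and 67.2 CPM and 117, 101 and 72.3 CPM in HY/HY mice, and rose with cold in wild-type mice by 1.29 ± 0.20 (SE, edgeR adjusted p = 0.000966). From 6.03% to 15.1% of its pairs lay on the opposite strand. *Pfkm*, the muscle type, was at 39.7, 65.2 and 48.4 CPM in wild-type mice at 30°C and 67.1, 65.0 and 64.8 CPM at 8°C, and 37.9, 43.1 and 44.8 CPM and 52.5, 47.1 and 49.6 CPM in HY/HY mice, and was not called. Its highest wild-type value at 30°C was in the library with muscle transcripts. Without that library the cold response of *Pfkm* in wild-type mice was 0.58 ± 0.12 (SE, edgeR adjusted p = 0.00950), just under the fold limit of 1.5.

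*Aldoa*, the aldolase of muscle and most tissues, was at 1286, 1456 and 1813 CPM in wild-type mice at 30°C and 4649, 4672 and 4535 CPM at 8°C, and 2028, 3830.4 and 2646 CPM and 2736, 2461 and 3041 CPM in HY/HY mice. It rose with cold in wild-type mice by 1.61 ± 0.24 (SE, edgeR adjusted p = 0.000735), and the difference between the genotypes at 8°C, -0.75 ± 0.23, was not called (edgeR adjusted p = 0.0767). *Aldoc*, the brain-type aldolase, was at 33.8, 46.5 and 28.8 CPM in wild-type mice at 30°C and 21.2, 18.8 and 14.7 CPM at 8°C, and 21.2, 30.7 and 10.1 CPM and 19.1, 20.2 and 17.3 CPM in HY/HY mice. It fell with cold in wild-type mice by 1.00 ± 0.32 (SE, edgeR adjusted p = 0.0397), a call lost in 9 of 21 refits. Without the library with muscle transcripts the estimate was -0.78 ± 0.34 (SE, edgeR adjusted p = 0.14). The mammary epithelium markers given above moved with it as well. *Tpi1*, triose phosphate isomerase, was at 328, 405 and 432 CPM in wild-type mice at 30°C and 791, 787 and 754 CPM at 8°C, and 368, 480.0 and 686 CPM and 722, 550.2 and 926 CPM in HY/HY mice, and rose with cold in wild-type mice (1.00 ± 0.24, SE, edgeR adjusted p = 0.0109). It did not separate the genotypes at 8°C, where the difference was -0.08 ± 0.23.

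The 4 bifunctional enzymes that make and remove fructose 2,6-bisphosphate, the strongest activator of phosphofructokinase, gave 1 call. *Pfkfb3*, whose product favours synthesis of the activator, was at 351, 279 and 371 CPM in wild-type mice at 30°C and 419.9, 573 and 634 CPM at 8°C, and 415, 229.9 and 356 CPM and 606, 709 and 686 CPM in HY/HY mice. It rose with cold in wild-type mice by 0.70 ± 0.22 (SE, edgeR adjusted p = 0.0386), a call lost in 8 of 21 refits. One of them was the refit without the library with muscle transcripts, where the estimate was 0.59 ± 0.25 (SE, edgeR adjusted p = 0.133). In HY/HY mice the estimate was 1.00 ± 0.22, with no overlap of the libraries and no call (edgeR adjusted p = 0.0952), and the interaction was 0.30 ± 0.31. *Pfkfb1*, *Pfkfb2* and *Pfkfb4* were not called in any comparison. *Pfkfb1* lay between 50.5 and 112 CPM, *Pfkfb2* between 9.19 and 21.3 CPM, and *Pfkfb4* between 11.9 and 44.7 CPM with its 2 highest values in the replicates 3 of the HY/HY mice.

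The genes of lower glycolysis, from glyceraldehyde 3-phosphate to pyruvate, were 6, of which 5 rose and 1 fell with cold in wild-type mice, and 5 were lower in HY/HY mice at 8°C. *Gapdh*, which makes the NADH of glycolysis and often serves as a reference gene, was at 822, 847 and 1131 CPM in wild-type mice at 30°C and 3496, 3489 and 3588 CPM at 8°C, and 1182, 2393 and 1572 CPM and 1638, 1709.9 and 1657 CPM in HY/HY mice. Its wild-type libraries at 8°C stood above all others. With cold it changed by 1.92 ± 0.24 in the wild type, and HY/HY mice gave -0.04 ± 0.23 (SE, edgeR adjusted p = 0.000247 and 0.958), and the difference between the genotypes at 8°C was -1.08 ± 0.24 (edgeR adjusted p = 0.0188). *Pgk1*, phosphoglycerate kinase, which makes ATP, was at 133, 139 and 182 CPM in wild-type mice at 30°C and 531, 541 and 476 CPM at 8°C, and 146, 242 and 207 CPM and 252, 277 and 250.4 CPM in HY/HY mice. *Pgam1*, phosphoglycerate mutase, was at 45.4, 44.7 and 51.3 CPM in wild-type mice at 30°C and 169, 202 and 230.2 CPM at 8°C, and 49.9, 68.3 and 72.7 CPM and 95.0, 108 and 119 CPM in HY/HY mice. For both genes the libraries of HY/HY mice at 8°C lay between their own libraries at 30°C and the wild-type libraries at 8°C. The wild-type responses were 1.77 ± 0.19 for *Pgk1* and 2.09 ± 0.16 for *Pgam1* (SE, edgeR adjusted p = 8.09e-05 and 1.83e-05). The differences between the genotypes at 8°C were -0.99 ± 0.18 and -0.90 ± 0.16 (SE, edgeR adjusted p = 0.00906 and 0.00713).

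*Eno1*, the enolase of most tissues, was at 549, 535 and 769 CPM in wild-type mice at 30°C and 2747, 2747 and 2348 CPM at 8°C, and 862, 1791 and 987 CPM and 1068, 1219 and 915 CPM in HY/HY mice. It changed by 2.08 ± 0.27 with cold in wild-type mice and differed by -1.29 ± 0.27 between the genotypes at 8°C (SE, edgeR adjusted p = 0.000317 and 0.0146). *Pkm*, pyruvate kinase, which makes the last ATP of glycolysis, was at 559.9, 549.9 and 564 CPM in wild-type mice at 30°C and 1569.8, 1595 and 1347 CPM at 8°C, and 663, 1354 and 734 CPM and 669, 784 and 687 CPM in HY/HY mice. It changed by 1.43 ± 0.24 and -1.08 ± 0.23 in the same comparisons (SE, edgeR adjusted p = 0.00145 and 0.0184). For both genes replicate 2 of the HY/HY mice at 30°C was far above replicates 1 and 3. *Eno3*, the muscle enolase, went the other way, at 19.7, 79.8 and 30.1 CPM in wild-type mice at 30°C and 14.6, 16.5 and 15.8 CPM at 8°C, and 22.1, 18.8 and 19.5 CPM and 12.8, 11.4 and 14.7 CPM in HY/HY mice. Its value of 79.8 CPM came from the library with muscle transcripts. The fall in wild-type mice was -1.47 ± 0.39 with that library and -0.67 ± 0.18 without it, and was called in both fits (SE, edgeR adjusted p = 0.0179 and 0.0305). Several genes of this path are known to have processed copies elsewhere in the genome, and 26.7% to 32.2% of the pairs of a library aligned to several places and were not counted, so levels of *Gapdh*, *Eno1*, *Pgk1*, *Aldoa*, *Ldha*, *Pkm* and *Tpi1* are uncertain on that account.

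**Figure D3:**
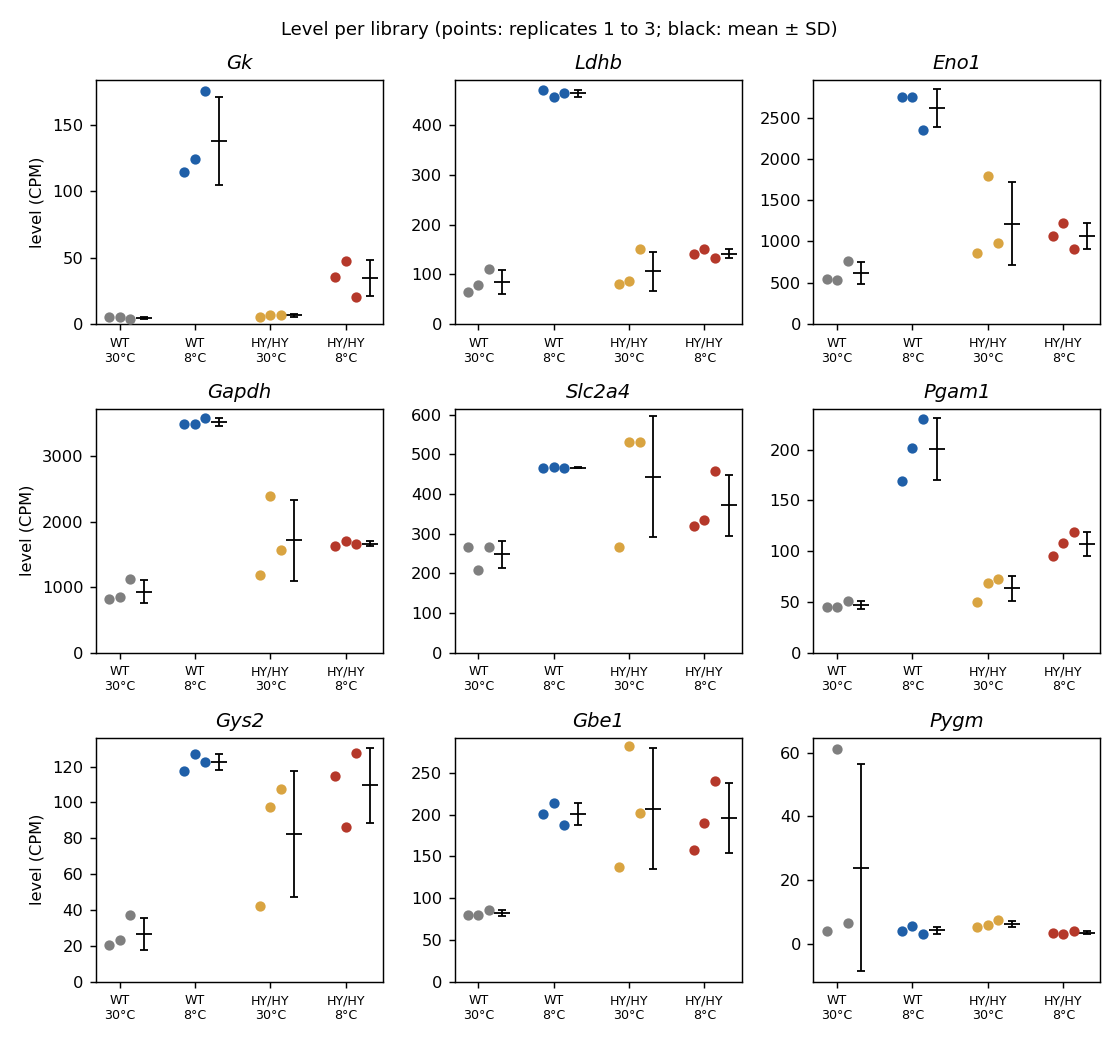
Level in CPM of 9 members in each library, by group (WT, wild type). Points are replicates 1 to 3 from left to right, and the black marks give mean and SD of 3 libraries. For *Gk*, *Ldhb*, *Eno1*, *Gapdh* and *Pgam1* the wild-type libraries at 8°C lie above all others, for *Gys2* and *Gbe1* the other 3 groups lie above the wild type at 30°C, and *Pygm* is high in 1 library.

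Lactate dehydrogenase joins pyruvate and lactate as a tetramer of A and B subunits, and the monocarboxylate transporter MCT1 carries both across the cell membrane. *Ldha*, the A subunit, was at 754, 785 and 1126 CPM in wild-type mice at 30°C and 2083, 1933 and 1709.5 CPM at 8°C, and 1093, 1581 and 1347 CPM and 1281, 1310.0 and 1403 CPM in HY/HY mice. It rose with cold in wild-type mice by 1.10 ± 0.20 (SE, edgeR adjusted p = 0.0023). *Ldhb*, the B subunit typical of oxidative tissue, was at 64.5, 78.5 and 111 CPM in wild-type mice at 30°C and 471, 457 and 465 CPM at 8°C, and 81.0, 86.5 and 151 CPM and 140.3, 151 and 134 CPM in HY/HY mice. The wild-type libraries at 8°C spanned only 457 to 471 CPM, and none of the other 9 libraries passed 151 CPM. The wild-type response of *Ldhb* was 2.46 ± 0.25, that of HY/HY mice 0.42 ± 0.24, and the difference between the genotypes at 8°C -1.71 ± 0.24 (SE, edgeR adjusted p = 6.35e-05, 0.443 and 0.00251). *Slc16a1*, which encodes MCT1, was at 25.5, 18.7 and 33.7 CPM in wild-type mice at 30°C and 181, 157 and 158 CPM at 8°C, and 27.7, 22.2 and 25.8 CPM and 87.2, 57.2 and 22.8 CPM in HY/HY mice. Its 3 HY/HY libraries at 8°C were spread widely, and replicate 3 lay inside the range of the libraries at 30°C. The wild-type response was 2.68 ± 0.37, and the difference between the genotypes at 8°C was -1.57 ± 0.36 (SE, edgeR adjusted p = 0.000502 and 0.023). The thermogenic markers in those 3 libraries summed to 1274, 1678 and 533 CPM in the same order, which was again lowest in replicate 3. *Slc16a3*, the transporter MCT4 of glycolytic muscle, never passed 2.09 CPM, and 19.4% to 67.5% of the pairs on it lay on the opposite strand. *Ldhd*, the mitochondrial D-lactate dehydrogenase, lay between 28.5 and 73.9 CPM with 15.6% to 44.5% of its pairs on the opposite strand. Neither was called.

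The 3 genes of glycerol 3-phosphate all rose with cold in wild-type mice, and all 3 were lower in HY/HY mice at 8°C. *Gk*, glycerol kinase, which lets a fat cell reuse the glycerol of lipolysis, was at 5.34, 5.01 and 3.88 CPM in wild-type mice at 30°C and 114, 124 and 175 CPM at 8°C, and 5.15, 6.88 and 7.06 CPM and 35.6, 47.3 and 20.5 CPM in HY/HY mice. It was 28.9 times as high in wild-type mice at 8°C as at 30°C and 5.43 times in HY/HY mice (4.85 ± 0.31 and 2.44 ± 0.28, SE, edgeR adjusted p = 1.21e-05 and 0.0042). All HY/HY libraries at 8°C lay above those at 30°C and below those of the wild type at 8°C. The call in HY/HY mice was lost when only the 6 libraries of that comparison were fitted (adjusted p = 0.104). The difference between the genotypes at 8°C was -2.0 ± 0.27 (SE, edgeR adjusted p = 0.002). *Gpd1*, the cytosolic glycerol 3-phosphate dehydrogenase, was the most abundant message of the list per kilobase at 8°C in wild-type mice. It was at 1359, 936 and 1562 CPM in wild-type mice at 30°C and 6496, 7213 and 6367 CPM at 8°C, and 1038, 2344 and 2638 CPM and 2225, 2961 and 3496 CPM in HY/HY mice, and changed by 2.38 ± 0.34 with cold in wild-type mice and by -1.21 ± 0.33 between the genotypes at 8°C (SE, edgeR adjusted p = 0.000557 and 0.0447). *Gpd2*, its mitochondrial partner in the glycerol phosphate shuttle, was at 73.2, 63.6 and 82.2 CPM in wild-type mice at 30°C and 345, 374 and 347 CPM at 8°C, and 80.9, 140.5 and 117 CPM and 127, 181 and 117 CPM in HY/HY mice. It changed by 2.28 ± 0.22 and -1.33 ± 0.21 in the same comparisons (SE, edgeR adjusted p = 4.61e-05 and 0.00404).

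Of the 39 members, 36 had a promoter window in RefSeq on GRCm38.p6, the mm10 build. The 250 bases before the start are shown for *Gk* and *Slc16a1*, whose estimated cold responses in wild-type mice were the highest of the 39 members, and for the subunits *Ldha* and *Ldhb*, whose responses differed in size. *Ldha* has 2 windows, and the one shown was picked as the first to hold an E-box. The other 3 genes have 1 window each. Capitals mark the E-box CACGTG, which reads the same on both strands and is bound by factors such as MYC and USF, and the cAMP response element TGACGTCA, which also reads the same on both strands. The windows lie at chrX:85776820-85777069 on the minus strand, chr3:104638414-104638663 on the plus strand, chr7:46845554-46845803 on the plus strand and chr6:142507958-142508207 on the minus strand.
*Gk*: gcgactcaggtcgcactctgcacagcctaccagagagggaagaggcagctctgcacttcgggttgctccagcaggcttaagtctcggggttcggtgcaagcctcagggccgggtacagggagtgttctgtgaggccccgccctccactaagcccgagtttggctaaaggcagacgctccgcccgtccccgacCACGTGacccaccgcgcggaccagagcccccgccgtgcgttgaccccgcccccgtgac
*Slc16a1*: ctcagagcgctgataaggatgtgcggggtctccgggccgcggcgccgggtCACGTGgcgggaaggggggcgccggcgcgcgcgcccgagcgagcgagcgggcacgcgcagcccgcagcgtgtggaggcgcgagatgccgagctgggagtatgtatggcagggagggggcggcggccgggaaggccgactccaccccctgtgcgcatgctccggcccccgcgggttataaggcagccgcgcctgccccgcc
*Ldha*: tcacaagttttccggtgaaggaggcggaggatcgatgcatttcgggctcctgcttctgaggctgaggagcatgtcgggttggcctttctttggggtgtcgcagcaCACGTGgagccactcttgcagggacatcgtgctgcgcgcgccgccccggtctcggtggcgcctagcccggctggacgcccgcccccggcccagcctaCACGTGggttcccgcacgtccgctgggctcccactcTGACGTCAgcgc
*Ldhb*: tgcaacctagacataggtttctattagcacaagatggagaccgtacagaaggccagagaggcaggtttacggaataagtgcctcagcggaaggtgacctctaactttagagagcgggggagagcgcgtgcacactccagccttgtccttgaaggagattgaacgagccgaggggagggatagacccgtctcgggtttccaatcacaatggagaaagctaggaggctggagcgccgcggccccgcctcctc
The E-box lay from 58 to 53 bases before the start of *Gk* and from 200 to 195 bases before that of *Slc16a1*. The window picked for *Ldha* held it at 145 to 140 and at 48 to 43 bases before the start. That window also held the cAMP response element at 12 to 5 bases. The 1 window of *Ldhb* held neither run of letters. An E-box stood in the windows of 7 of the 36 members, namely *Gk*, *Ldha*, *Ldhd*, *Pfkfb2*, *Pfkfb3*, *Pfkm* and *Slc16a1*. Of these 7, 4 rose with cold in wild-type mice. Of all 39 members 24 rose, a count that takes in the 3 members without a window. The E-box stood in 6.86% of all 27025 genes with a window. A gene can have several windows: the 36 members had 55 and the 27025 genes 32851. By window the E-box stood in 7 of the 55, against 6.02% of all. The cAMP response element stood in 1 of the 36 members, *Ldha*, and in 1.77% of all genes with a window. These are matches of letters and do not show that a factor binds.

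Of the 10 glycogen genes, 6 rose and 1 fell with cold in wild-type mice, 0 were called between the genotypes at 8°C, and 3 were higher in HY/HY mice at 30°C. *Gys2*, the glycogen synthase known from liver and fat, was at 20.4, 23.0 and 37.0 CPM in wild-type mice at 30°C and 118, 127 and 123 CPM at 8°C, and 42.2, 97.7 and 108 CPM and 115, 86.2 and 127 CPM in HY/HY mice. The lowest HY/HY library at 30°C, at 42.2 CPM, was above the highest wild-type library at 30°C, at 37.0 CPM. *Gys2* differed by 2.19 ± 0.32 by cold in wild-type mice, by 0.41 ± 0.31 by cold in HY/HY mice and by 1.62 ± 0.32 between the genotypes at 30°C (SE, edgeR adjusted p = 0.000678, 0.572 and 0.0403). *Gys1*, the synthase of muscle and most tissues, was at 133, 136 and 202 CPM in wild-type mice at 30°C and 220.0, 224 and 216 CPM at 8°C, and 129, 154 and 229 CPM and 190.3, 198 and 253 CPM in HY/HY mice, and was not called.

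*Gbe1*, the branching enzyme, was at 80.1, 80.0 and 86.1 CPM in wild-type mice at 30°C and 201, 215 and 188 CPM at 8°C, and 137, 282 and 202 CPM and 158, 190.1 and 240.1 CPM in HY/HY mice. Its 3 wild-type libraries at 30°C spanned 80.0 to 86.1 CPM, below all other libraries. It differed by 1.29 ± 0.23 by cold in wild-type mice and by 1.34 ± 0.23 between the genotypes at 30°C, and by -0.04 ± 0.22 at 8°C (SE, edgeR adjusted p = 0.00203, 0.0268 and 0.944). *Pygl*, the liver-type glycogen phosphorylase, was at 284, 292 and 355 CPM in wild-type mice at 30°C and 935, 842 and 759.5 CPM at 8°C, and 459, 914 and 585 CPM and 518, 574 and 569 CPM in HY/HY mice. It differed by 1.45 ± 0.22 by cold in wild-type mice, by 1.07 ± 0.22 between the genotypes at 30°C and by -0.61 ± 0.22 at 8°C (SE, edgeR adjusted p = 0.000905, 0.0451 and 0.118). The 3 differences at 30°C stood near the threshold. They were lost in 10 of 21 refits for *Gys2*, 14 for *Pygl* and 5 for *Gbe1*.

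The other phosphorylases were not called higher in any comparison. *Pygm*, the muscle phosphorylase that is missing in McArdle disease, was at 3.94, 61.3 and 6.64 CPM in wild-type mice at 30°C and 4.08, 5.5 and 3.20 CPM at 8°C, and 5.26, 6.02 and 7.42 CPM and 3.43, 3.18 and 3.97 CPM in HY/HY mice. Its 1 high value was that of the library with muscle transcripts, and its call by cold in wild-type mice was -2.50 ± 0.80 with that library and -0.31 ± 0.29 without it (SE, edgeR adjusted p = 0.0406 and 0.492). *Pygb*, the brain-type phosphorylase, was at 171, 157 and 226 CPM in wild-type mice at 30°C and 101, 106 and 112 CPM at 8°C, and 154, 90.5 and 257 CPM and 153, 164 and 224 CPM in HY/HY mice. Its wild-type libraries at 8°C lay below those at 30°C (-0.80 ± 0.30, SE), but it was not called (edgeR adjusted p = 0.0726).

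The enzymes that bring glucose to glycogen rose modestly with cold in wild-type mice. *Ugp2*, which makes UDP-glucose, was at 123, 93.0 and 110.4 CPM in wild-type mice at 30°C and 159.5, 192 and 215 CPM at 8°C, and 122, 219 and 196 CPM and 132, 141 and 163 CPM in HY/HY mice, and changed by 0.80 ± 0.20 (SE, edgeR adjusted p = 0.016). *Gyg*, glycogenin, the primer of the glycogen particle, was at 81.4, 64.5 and 119 CPM in wild-type mice at 30°C and 149.7, 186 and 177 CPM at 8°C, and 79.3, 72.8 and 129 CPM and 123, 130.1 and 130.4 CPM in HY/HY mice, and changed by 0.95 ± 0.24 (SE, edgeR adjusted p = 0.0148). *Pgm1*, the main phosphoglucomutase, was at 146, 159 and 219 CPM in wild-type mice at 30°C and 279, 285 and 302 CPM at 8°C, and 159, 211 and 289 CPM and 249, 258 and 331 CPM in HY/HY mice, and changed by 0.72 ± 0.22 (SE, edgeR adjusted p = 0.0311). Without the library with muscle transcripts the 3 estimates were 0.69 ± 0.23, 0.77 ± 0.24 and 0.66 ± 0.25 (SE) and were not called (edgeR adjusted p = 0.0661, 0.0583 and 0.103). None of them was called between the genotypes. *Pgm2* lay between 11.8 and 22.3 CPM and was not called.

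**Figure D4:**
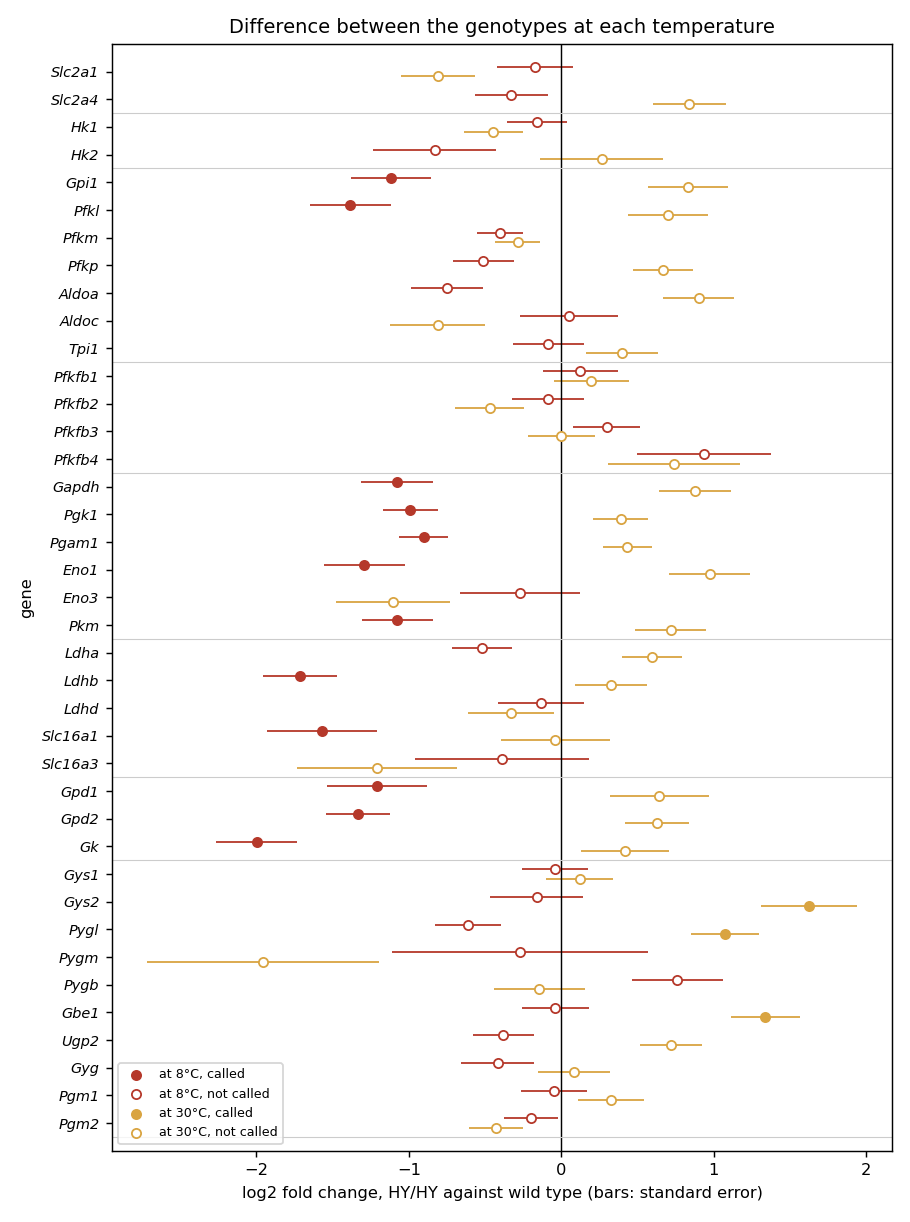
Log2 fold change of HY/HY against wild-type mice for each member at 8°C (red) and at 30°C (yellow). Points are estimates from 3 libraries against 3, bars are standard errors, and filled points were called. The 12 filled red points stand to the left of 0 and lie in glycolysis, lactate and glycerol 3-phosphate, and the 3 filled yellow points, *Gys2*, *Pygl* and *Gbe1*, to the right.

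The 11 members called in 0 of the 5 comparisons by edgeR were *Hk1*, *Hk2*, *Pfkm*, *Pfkfb1*, *Pfkfb2*, *Pfkfb4*, *Ldhd*, *Slc16a3*, *Gys1*, *Pygb* and *Pgm2*. Their differences ran from -1.21 to 0.94 on the log2 scale, and the smallest adjusted p was 0.0726.

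The interaction equals the difference between the genotypes at 8°C minus that at 30°C, so the same value can arise in more than 1 way, and both differences are set side by side. For *Ldhb* they were -1.71 ± 0.24 at 8°C and 0.33 ± 0.24 at 30°C, for an interaction of -2.04 ± 0.34 (SE, edgeR adjusted p = 0.0135). For *Gk* they were -2.0 ± 0.27 and 0.42 ± 0.29, for an interaction of -2.41 ± 0.39 (edgeR adjusted p = 0.0132). For *Gbe1* they were -0.04 ± 0.22 and 1.34 ± 0.23, for an interaction of -1.38 ± 0.31 (edgeR adjusted p = 0.0456). In *Ldhb* and *Gk* the larger of the 2 differences was at 8°C, and in *Gbe1* it was at 30°C. *Pygl* differed by -0.61 ± 0.22 at 8°C and 1.07 ± 0.22 at 30°C. For *Gapdh* the differences were -1.08 ± 0.24 and 0.88 ± 0.24, of which the first was called. The comparisons at 8°C and 30°C share no libraries with each other, but each shares libraries with the cold responses given above.

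Per kilobase of exon, levels can be set side by side between genes. In wild-type mice at 30°C the most abundant messages were *Aldoa* at 551 ± 97.8, *Gpd1* at 434 ± 108, *Gapdh* at 414 ± 76.2 and *Ldha* at 298 ± 69.2 CPM per kb (mean and SD, n = 3). The order of *Aldoa*, *Gpd1* and *Gapdh* is not separated by their spread. At 8°C the wild-type mice had *Gpd1* at 2260.1 ± 154, *Aldoa* at 1677 ± 26.7 and *Gapdh* at 1564 ± 24.4 CPM per kb, and here *Gpd1* lay above the others by more than their SD. At the low end stood *Slc16a3* at 0.237 ± 0.163 and *Gk* at 0.612 ± 0.0993 CPM per kb at 30°C, and *Gk* reached 17.8 ± 4.24 CPM per kb in wild-type mice at 8°C and 4.45 ± 1.73 in HY/HY mice at 8°C.

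Within an enzyme step the share of 1 isoform, taken from counts per kilobase, does not depend on how libraries are scaled. The 96 comparisons of shares, in which a step of 2 isoforms enters once for each of them, were tested by exact permutation (two-sided, 3 libraries a group), whose smallest possible p is 0.1, so that no share could pass a threshold of 0.05, and the smallest adjusted p was 0.209. In 46 of the 96 the libraries compared did not overlap. The 46 are not independent, since both shares of a step with 2 isoforms separate together. The share of *Ldhb* among lactate dehydrogenase subunits A and B was 15.2% ± 1.10 in wild-type mice at 30°C and 31.7% ± 2.10 at 8°C, and 13.1% ± 4.14 and 16.8% ± 1.35 in HY/HY mice (SD, n = 3). It was higher in wild-type mice at 8°C than at 30°C without overlap of the libraries, and at 8°C the HY/HY libraries lay below those of the wild type. The share of *Gys2* among the 2 glycogen synthases was 23.3% ± 1.59 in wild-type mice at 30°C and 50.1% ± 0.825 at 8°C, and 45.4% ± 8.12 and 47.9% ± 4.06 in HY/HY mice (SD, n = 3), with the wild-type libraries at 30°C below all others. The share of *Pygl* among the 3 phosphorylases was 63.9% ± 3.78 in wild-type mice at 30°C and 90.3% ± 1.30 at 8°C, and 81.1% ± 9.74 and 79.1% ± 2.94 in HY/HY mice (SD, n = 3), again with the wild-type libraries at 30°C below all others. In the library with muscle transcripts *Pygm* took 14.9% of the phosphorylases. Without that library the mean share of *Pygl* in wild-type mice at 30°C was 66.1%.

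The share of *Pfkl* among the 3 phosphofructokinase subunits was 59.4% ± 8.56 in wild-type mice at 30°C and 77.7% ± 1.30 at 8°C, and 68.6% ± 6.67 and 64.4% ± 3.41 in HY/HY mice (SD, n = 3). The wild-type libraries at 8°C lay above all others. In the library with muscle transcripts the share of *Pfkl* was 49.5% and that of *Pfkm* 39.2%. Without that library the mean share of *Pfkl* in wild-type mice at 30°C was 64.4%. The share of *Slc2a4* between the 2 transporters was 84.1% ± 5.76 in wild-type mice at 30°C and 94.7% ± 0.850 at 8°C, and 94.0% ± 2.24 and 94.0% ± 0.519 in HY/HY mice (SD, n = 3). Its wild-type libraries at 30°C lay below all others, and replicate 2 with its muscle transcripts was the lowest of them. The share of *Eno3* between the 2 enolases was 17.8% ± 12.4 in wild-type mice at 30°C and 1.88% ± 0.221 at 8°C, and 5.57% ± 2.18 and 3.81% ± 0.989 in HY/HY mice (SD, n = 3), with its highest share of 32.2% in that same library and 10.7% as the mean of the other 2.

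**Figure D5:**
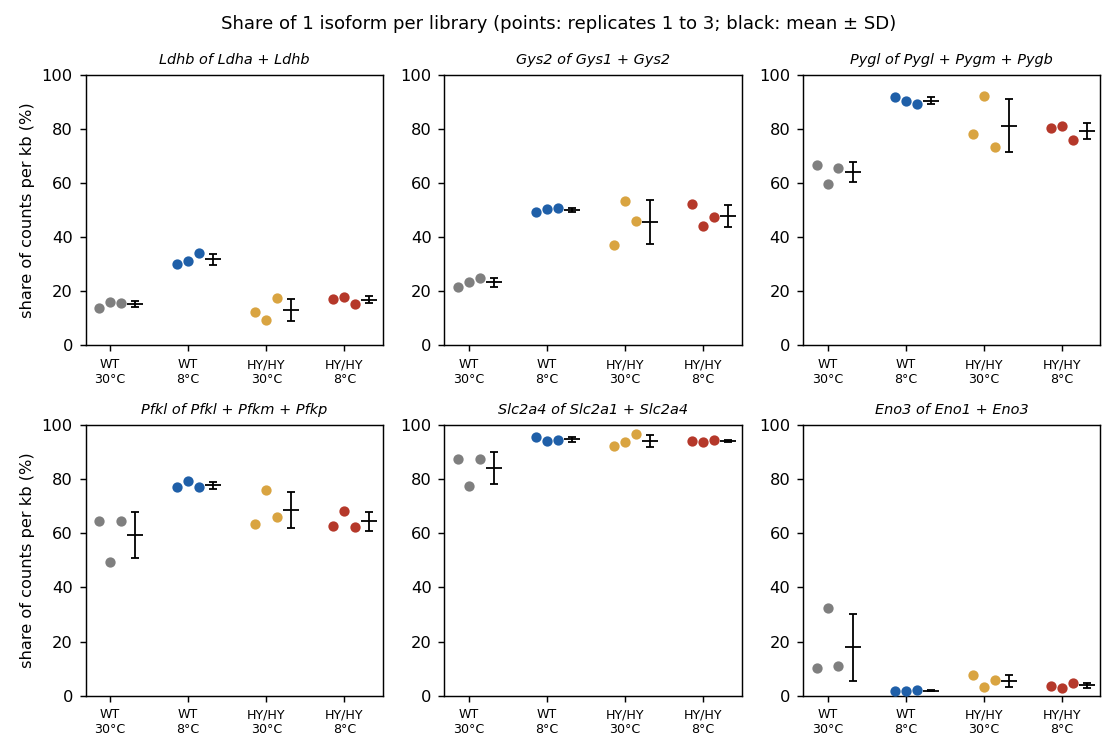
Share of 1 isoform among the isoforms of its step, in percent of counts per kilobase, in each library by group (WT, wild type). Points are replicates 1 to 3 from left to right, and the black marks give mean and SD of 3 libraries. *Ldhb* and *Pfkl* are highest in wild-type mice at 8°C, *Gys2* and *Slc2a4* are lowest in wild-type mice at 30°C, and *Eno3* is high in 1 wild-type library at 30°C.

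The neighbouring paths were read from lists of genes of known function. Of 13 genes of pyruvate and lactate handling, 8 rose with cold in wild-type mice and 0 fell, and 4 were lower in HY/HY mice at 8°C. *Pdk4*, the kinase that shuts pyruvate out of the citric acid cycle, was at 29.9, 29.8 and 52.3 CPM in wild-type mice at 30°C and 567, 842 and 980.5 CPM at 8°C, and 28.6, 18.8 and 57.1 CPM and 157, 189 and 78.1 CPM in HY/HY mice, with a cold response of 4.42 ± 0.48 in wild-type mice and a difference of -2.49 ± 0.44 between the genotypes at 8°C (SE, edgeR adjusted p = 9.27e-05 and 0.00688). *Mpc1* and *Mpc2*, the subunits of the carrier that lets pyruvate into mitochondria, rose by 2.36 ± 0.26 and 2.52 ± 0.22 (SE, edgeR adjusted p = 0.000102 and 3.26e-05). *Mpc2* was called lower between the genotypes at 8°C (-0.99 ± 0.21, SE), and the interaction was called for both (edgeR adjusted p = 0.0295 and 0.0113). *Bsg*, the chaperone of MCT1, was lower in HY/HY mice at 8°C, with a difference of -0.85 ± 0.14 (SE, edgeR adjusted p = 0.00483).

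Of 8 pentose phosphate genes 5 rose with cold in wild-type mice, the largest being *Pgd* at 1.43 ± 0.27 and *Taldo1* at 1.23 ± 0.19 (SE, edgeR adjusted p = 0.00365 and 0.00091). *Pgls* was the 1 of them lower in HY/HY mice at 8°C, with a difference of -1.10 ± 0.11 (SE, edgeR adjusted p = 0.000629). Of 7 malate-aspartate shuttle genes, which carry the NADH of glycolysis into mitochondria, 4 rose in wild-type mice, led by *Mdh2* at 1.84 ± 0.20, and 3 were lower in HY/HY mice at 8°C, led by *Got1* at -1.49 ± 0.25 (SE, edgeR adjusted p = 9.27e-05 and 0.00544). Of 8 genes of gluconeogenesis, 7 were tested, and 2 rose and 1 fell with cold in wild-type mice. This is 28.6% and 14.3% of those tested, against 10.3% and 6.93% of all genes. *Fbp2*, the muscle-type fructose 1,6-bisphosphatase, was at 1.09, 1.51 and 1.22 CPM in wild-type mice at 30°C and 14.3, 18.2 and 15.2 CPM at 8°C, and 0.968, 1.72 and 1.45 CPM and 1.49, 2.62 and 1.54 CPM in HY/HY mice. Its wild-type libraries at 8°C stood above all others, with a response of 3.63 ± 0.27 and a difference of -3.07 ± 0.27 between the genotypes at 8°C (SE, edgeR adjusted p = 1.71e-05 and 0.000626).

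Of 19 further glycogen genes tested, 2 were called higher and 1 lower by cold in wild-type mice, which is 10.5% and 5.26% of them, against 10.3% and 6.93% of all genes. *Stbd1*, which tethers glycogen, rose by 0.65 ± 0.21, and *Phkg1*, a subunit of phosphorylase kinase, fell by 1.20 ± 0.32 (SE, edgeR adjusted p = 0.0396 and 0.0208). Calls of genes outside the members, *Phkg1* and *Slc2a3* among them, were not repeated without the library with muscle transcripts. *Stbd1* was also lower in HY/HY mice at 8°C, with a difference of -0.85 ± 0.21 (SE, edgeR adjusted p = 0.0333). Of 7 genes of glucose sensing and transport control, among them *Mlxipl* and *Txnip*, edgeR called 0 in each comparison, with 2 at an unadjusted p under 0.05 by cold in wild-type mice. Of 7 further isoforms of glycolytic enzymes, such as *Pgam2* and *Eno2*, 3 were tested and 0 were called by edgeR, with 1 at an unadjusted p under 0.05 by cold in wild-type mice.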

How the data were processed

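RNA of scWAT from 12 libraries, 3 per group, had been prepared with a TruSeq kit and sequenced on an Illumina HiSeq instrument. The authors trimmed reads with fastp and aligned them with STAR to mm10 using GENCODE M25, and the deposited tables hold raw counts of read pairs per gene. The submitters' processing notes name FastQC and StringTie. The sense-strand counts were used, with the 4 rows that name no gene left out. These rows held pairs on no gene, 55.8% to 63.5% of all pairs, multi-mapping pairs (26.7% to 32.2%) among them. Of 190 symbols looked up, 2 were not matched. Gene lengths came from GENCODE M1 exons.

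The counts were fitted in R 4.3.3 with edgeR 4.0.16 (TMM, default filter, 16540 genes, all 12 libraries, no covariate), after a test of the scripts on simulated counts. The biological coefficient of variation was 20.7%, with 8 residual degrees of freedom. Call limits were an adjusted p under 0.05 with a fold above 1.5 or below 0.67, and for the interaction the adjusted p alone. Isoform shares were compared by exact permutation. Alternatives were DESeq2 1.42.0, library totals, no mitochondrial genes in library sizes, no filter or at least 10 counts in every library, both strands, only the libraries compared, a replicate block, other call limits and each library left out. Library totals without TMM moved the median of all genes in wild-type cold from -0.069 to -0.41. Every called member was given in full with the isoforms of its step, and other members by range, and from other lists at most 4 called genes were named. The members and lists were chosen with earlier results of these data known. Some genes of the other lists are not reported here.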

Additional observations from a re-analysis of the deposited data

Results flagged for a closer look

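The response to cold differed between the genotypes, by a test of the difference itself, for 13 members. The values are the log2 response in HY/HY mice minus that in wild-type mice, by the quasi-likelihood test of edgeR, adjusted after Benjamini and Hochberg. In upper glycolysis they were *Gpi1* -1.94 (SE 0.37, adjusted p = 0.0255), *Pfkl* -2.08 (SE 0.37, adjusted p = 0.0199) and *Aldoa* -1.65 (SE 0.33, adjusted p = 0.03). In lower glycolysis they were *Gapdh* -1.96 (SE 0.33, adjusted p = 0.0147), *Pgk1* -1.38 (SE 0.26, adjusted p = 0.0231), *Pgam1* -1.34 (SE 0.23, adjusted p = 0.0146), *Eno1* -2.27 (SE 0.38, adjusted p = 0.0135) and *Pkm* -1.79 (SE 0.33, adjusted p = 0.0218). For lactate and glycerol 3-phosphate they were *Ldhb* -2.04 (SE 0.34, adjusted p = 0.0135), *Gpd2* -1.96 (SE 0.29, adjusted p = 0.0113) and *Gk* -2.41 (SE 0.39, adjusted p = 0.0132), and for glycogen *Pygl* -1.68 (SE 0.31, adjusted p = 0.0218) and *Gbe1* -1.38 (SE 0.31, adjusted p = 0.0456). None of the 13 was called in every alternative setting. The groups held 3 libraries each, too few for a search for outlying libraries.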

How the results depend on the processing

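No call of a member changed direction in any of the alternatives run. Over the refits with the same call limits, 19 of the 28 calls by cold in wild-type mice were kept in all, of the 12 between the genotypes at 8°C 5 (*Pgk1*, *Pgam1*, *Ldhb*, *Gpd2* and *Gk*), and of the 3 at 30°C and the 13 of the interaction 0. DESeq2 called 3 members higher by cold in HY/HY mice, against 1.31% of all genes. Between the genotypes at 30°C it called 12 higher and 1 lower, against 2.16% and 1.89%. In the interaction it called 20 lower, against 4.32%. With no filter on low counts 3 members were higher by cold in HY/HY mice and 7 at 30°C, against 0.326% and 0.916% of all genes. Library totals without TMM gave 7 members lower by cold in wild-type mice and 1 higher between the genotypes at 8°C. Among all genes these shares were 24.99% and 3.23%. The members' median by cold in wild-type mice was then 0.63, beside -0.41 over all genes. Their interaction median was -0.88, beside 0.25. With only the libraries compared, 0 members were called higher by cold in HY/HY mice, 1 higher at 8°C and 0 higher at 30°C. Among all genes these shares were 0%, 3.80% and 0%. At an adjusted p under 0.01, 0 members were lower by cold in wild-type mice, 5 lower at 8°C, 0 higher at 30°C and 0 lower in the interaction. Among all genes the shares were 2.15%, 1.76%, 0% and 0.127%. Without both replicates 2 at 30°C, a choice made after seeing the data, 2 were lower by cold in wild-type mice, 0 higher at 30°C and 3 lower in the interaction, with a median of -0.82. Here 3.85%, 0.109% and 0.200% of all genes were called. The cause of these shifts was not tested.

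Leaving out 1 library at a time, the calls ranged from 19 to 25 higher and 0 to 6 lower by cold in wild-type mice, from 1 to 5 higher by cold in HY/HY mice, from 0 to 1 higher and 6 to 14 lower at 8°C, from 0 to 9 higher at 30°C and from 3 to 18 in the interaction. The share of all genes called moved too. Higher by cold in wild-type mice were 8.13% without wild-type replicate 2 at 30°C and 10.5% without HY/HY replicate 2 at 30°C. Lower in the interaction were 0.707% and 1.08%. In the same refits 3.31% and 7.23% were lower by cold in wild-type mice, and 0.175% and 0.0484% higher by cold in HY/HY mice. At 8°C 1.54% and 1.82% were higher and 4.43% and 4.53% lower, and at 30°C 0.0665% and 0.459% were higher. For the other refits the shares of all genes are not given here, so a change in their counts is not particular to the members. The median at 30°C ranged from 0.13 to 0.57 and that of the interaction from -1.24 to -0.93. The lower calls by cold in wild-type mice numbered 0 without any 1 of the wild-type libraries at 8°C, 1 without wild-type replicate 2 at 30°C and 2 without any 1 of the HY/HY libraries at 8°C. At 8°C 6 or 7 lower calls were left without wild-type replicate 1 or 2 or HY/HY replicate 1 or 3 at 8°C. At 30°C 9 were higher without HY/HY replicate 1 at 30°C, 0 without wild-type replicate 1 or 2 at 30°C or wild-type replicate 2 at 8°C, and 1 without wild-type replicate 1 or 3 at 8°C, HY/HY replicate 2 or 3 at 30°C or HY/HY replicate 1 at 8°C. In the interaction 3 were left without wild-type replicate 1 at 30°C, 4 without HY/HY replicate 1 or 3 at 8°C, 6 without wild-type replicate 2 at 30°C or replicate 1 or 2 at 8°C, and 8 without HY/HY replicate 2 at 8°C. By cold in HY/HY mice 5 were higher without replicate 3 at 30°C and 2 without replicate 3 at 8°C.

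Same-numbered libraries correlated in their deviations from the group means at -0.069 to 0.346 (18 pairs, median 0.115). Libraries of different number correlated at -0.288 to 0.184 (36 pairs, median -0.051). In 23 of 36 pairings the best correlate among 3 candidates bore the same number. Same-numbered pairs were thus the closer ones by median, but some did not correlate, so the numbers were not taken to pair the libraries. With the number as a replicate block 24 members were higher and 4 lower by cold in wild-type mice. In HY/HY mice 2 were higher by cold. Between the genotypes 12 were lower at 8°C, 3 higher and 1 lower at 30°C, and 17 were lower in the interaction. Among all genes 10.9% were higher and 8.597% lower by cold in wild-type mice, and 0.774% higher by cold in HY/HY mice. At 8°C 4.87% were lower, at 30°C 1.29% were higher and 1.81% lower, and in the interaction 2.84% were lower. Each of these shares was higher than in the fit without the block. The block ended 1 call of the 28 by cold in wild-type mice, that of *Pygm*, and added *Pygb*. Counting both strands moved isoform shares in HY/HY mice at 8°C to 99.3% for *Aldoa* and 0.691% for *Aldoc*. For *Slc16a1* it gave 99.3% in the wild type at 8°C and 97.5% in HY/HY mice at 30°C, and for *Slc16a3* 0.67% and 2.53%. Depth limits the values of *Slc16a3*, which lay near or below 1 CPM in several libraries.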

Other observations

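Beyond the groups compared, single libraries held values of their own. In HY/HY mice at 8°C, replicate 3 was the lowest of the 3 libraries for *Gk*, at 20.5 CPM against 35.6 and 47.3 CPM, and for *Slc16a1*, at 22.8 CPM against 87.2 and 57.2 CPM. The same library had the highest *Tpi1* of all 12, at 926 CPM, and the highest *Pfkfb4*, at 44.7 CPM. At 30°C in HY/HY mice, the pentose phosphate genes summed to 9855 CPM in replicate 2, against 4833 and 5481 CPM in replicates 1 and 3.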
